A study of Mus musculus with 12 samples.

Results

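Genes that repair DNA double-strand breaks were followed through T cell lymphoma in mice lacking the transcription factor TCF-1. The set was a list of 32 genes chosen by name: the core of non-homologous end joining, the damage kinases and the chromatin proteins that signal a break, homologous recombination and Fanconi anaemia factors, and proteins of single-strand break repair and alternative end joining. Of these, 30 had a measured row among the 19938 genes of the array and all 30 passed the filter on dim genes that left 14953 genes for testing. Dclre1c (the hairpin-opening nuclease Artemis) and Rnf8 (a ubiquitin ligase of the break response) had no row with their symbol alone and were not analysed here.

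The arrays came from 3 groups of C57/BL6 mice. The lymphoma group held 6 samples of T cell lymphoma cells sorted from thymuses of diseased TCF-1 KO mice aged 12 to 40 weeks. The KO DN3 group held 3 samples of DN3 thymocytes from TCF-1 KO mice aged 8 to 12 weeks, and the WT DN3 group held 3 samples of DN3 thymocytes from wild-type mice aged 8 to 12 weeks. Both TCF-1 KO groups carry the same genotype, the labels do not describe the allele further, and age differs between lymphomas and DN3 cells. The labels call the samples biological replicates without saying how many animals gave each, so the spread given here is that between samples. Values are log2 signals from Affymetrix gene arrays, on which 1 unit is a doubling of signal. The number of arrays limits the precision, and levels of different genes are not compared because each probe set has its own brightness.

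DN3 thymocytes are the immature T cell stage at which the recombinase RAG cuts the T cell receptor beta locus, so they make double-strand breaks as part of normal development. Those breaks are joined by classical end joining: the Ku heterodimer of Xrcc6 (Ku70) and Xrcc5 (Ku80) holds the ends, Prkdc (the catalytic subunit of DNA-dependent protein kinase) is recruited by Ku, and Lig4 with its partner Xrcc4 seals the join. Atm and the chromatin proteins downstream of it hold ends together and restrict their resection, while homologous recombination serves mainly cells that have copied their DNA. Failures of these steps are known from mouse models to let antigen receptor breaks become translocations.

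The arrays were alike in overall level, with medians between 5.30 and 5.39 and correlations between 0.9599 and 0.9886 within groups. Mean levels of the 10 measured T cell and DN3 markers were well above the array medians. They were 8.78 to 9.33 in lymphomas, 9.16 to 9.37 in KO DN3 and 9.28 to 9.35 in WT DN3 cells. Not every gene of the list was bright: Rag2 averaged 5.31 in lymphomas, 6.19 in KO DN3 and 6.69 in WT DN3 cells. Mean levels of erythroid markers ran from below the array medians to near or above them (5.13 to 5.36 in lymphomas, 5.10 to 5.49 in KO DN3, 5.15 to 5.34 in WT DN3). Only 2 of the 5 listed erythroid genes, Alas2 and Klf1, had a row. Those of thymic stroma markers lay above the array medians (5.60 to 5.83 in lymphomas, 5.82 to 6.08 in KO DN3, 5.84 to 5.95 in WT DN3). Rag1, a subunit of the recombinase, averaged 8.47 in lymphomas, 10.09 in KO DN3 cells and 10.39 in WT DN3 cells. Mean levels of the B cell markers (4.75 to 5.13 in lymphomas, 5.00 to 5.09 in KO DN3, 4.88 to 4.96 in WT DN3) and of the myeloid markers (4.94 to 5.18 in lymphomas, 5.10 to 5.20 in KO DN3, 4.99 to 5.08 in WT DN3) lay below the array medians. Single genes did not. By group means Pax5, Blk and Cd68 lay above in every group, and Blk reached 7.40 in lymphoma 4. Cd79b averaged 5.17 in lymphomas, 5.99 in KO DN3 and 6.13 in WT DN3 cells. Elane lay near or above the medians, and Mpo above them in KO DN3 cells only. The other genes of both lists lay below the array medians. Lists of later T cells (5.96 to 6.51 in lymphomas, 6.34 to 6.43 in KO DN3, 5.55 to 5.76 in WT DN3) and NK cells (5.69 to 5.97 in lymphomas, 5.97 to 6.25 in KO DN3, 5.75 to 6.03 in WT DN3) were above them. Their genes were mixed. By group means Cd8a, Cd8b1 and Ccr7 lay above the array medians and Cd4 below. Of the NK genes, Gzma (10.39 to 11.08), Nkg7 and Prf1 lay above, and Ncr1, Klrb1c and Eomes below. The part of these lists in the results below was not tested. In sorted bulk samples, fewer cells of a type and less RNA per cell cannot be told apart. Signals of 34 unnamed rows split the arrays into a smaller set (lymphomas 1 and 2, KO DN3 replicate 1 and WT DN3 replicate 1) and a larger set of the other 8. All groups lay on both sides, and the labels do not say what the split is. Low Xist signal, 4.13 to 4.40 against 10.1 to 10.6 elsewhere, marked lymphomas 1, 2 and 6 and KO DN3 replicate 3. TCF-1 itself was not analysed here.

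**Figure D1:**
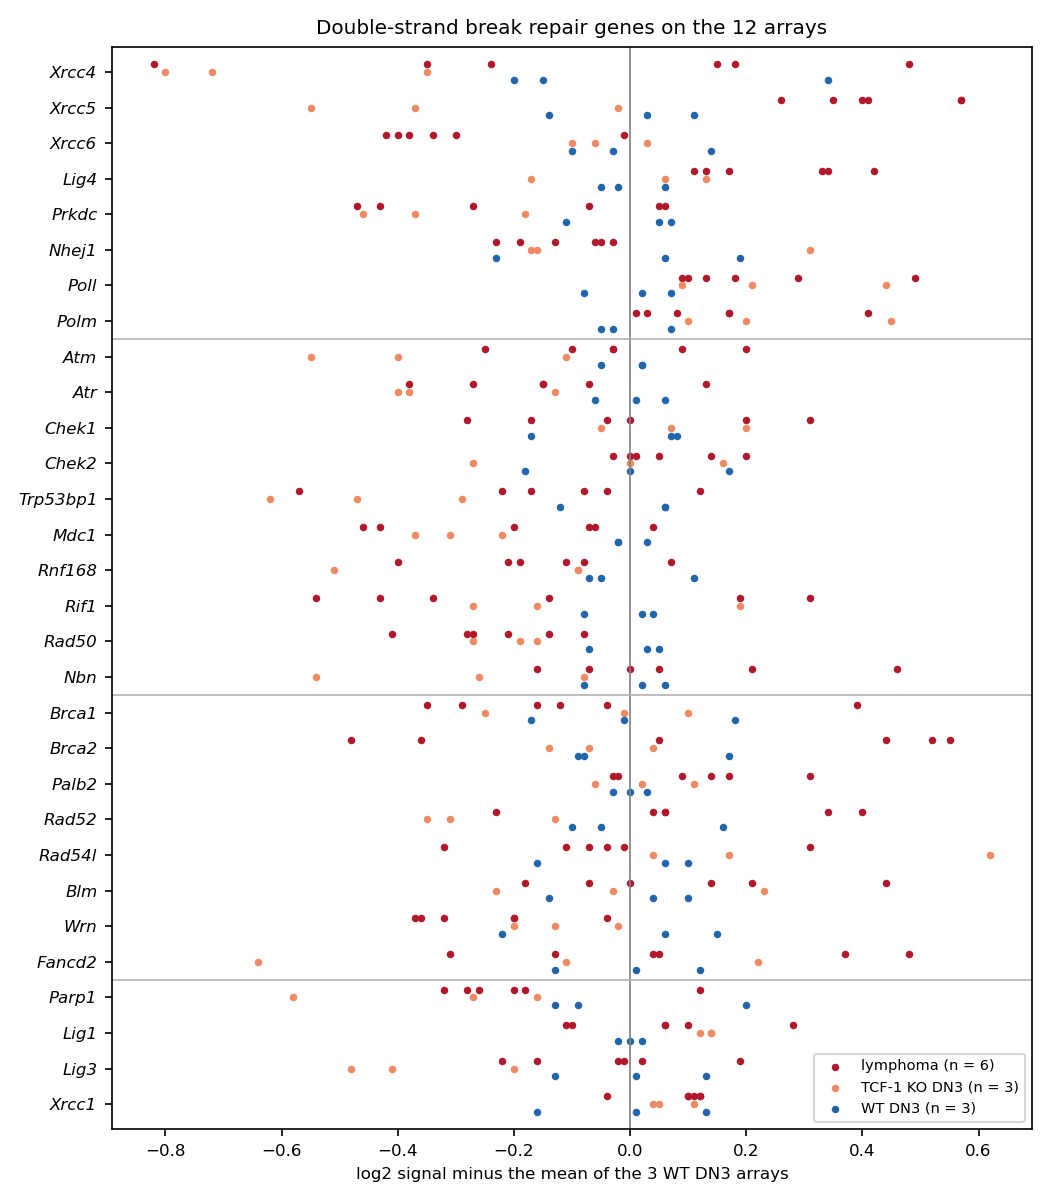
Log2 signal minus the mean of the 3 WT DN3 arrays (x axis) for the 30 measured repair genes (rows, with lines between the roles) on each of the 12 arrays, 1 point per array, with lymphomas above KO DN3 and WT DN3 in each row. For most genes the lymphomas overlap each DN3 group. Xrcc5 is higher in all 6 lymphomas than in the DN3 cells. KO DN3 values lie below all WT DN3 values for 11 genes and above them for 3, beside 11.6% and 10.4% of all genes.

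The promoters below are shown because they belong to genes with the lowest p-values among members in the comparison of lymphomas with WT DN3 cells. They include both Ku subunits, whose values lay on opposite sides of WT DN3. Each runs from 250 bases before to 50 bases after a start that RefSeq's GRCm38.p6 promoter table gives for the gene, written on the gene's own strand. Xrcc5 is at chr1:72307171-72307470 on the plus strand with 48% GC, Xrcc6 at chr15:82016119-82016418 on the plus strand with 64.3% GC, and Lig4 at chr8:9977631-9977930 on the minus strand with 66.3% GC. The Xrcc6 window lies inside its annotated locus, whose first base is 81987833 on the same chromosome, and for Lig4 the farther upstream of 2 listed windows is shown. Capitals mark a match to an E2F word, the recognition sequence of a factor family known for cell cycle genes, and Xrcc6 has 1 match at position -46 from the start.
Xrcc5: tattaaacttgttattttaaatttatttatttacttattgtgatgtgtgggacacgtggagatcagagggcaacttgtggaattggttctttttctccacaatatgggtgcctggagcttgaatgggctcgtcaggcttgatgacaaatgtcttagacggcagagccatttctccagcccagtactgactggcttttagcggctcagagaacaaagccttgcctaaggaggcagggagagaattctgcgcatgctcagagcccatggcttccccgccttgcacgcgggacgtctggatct
Xrcc6: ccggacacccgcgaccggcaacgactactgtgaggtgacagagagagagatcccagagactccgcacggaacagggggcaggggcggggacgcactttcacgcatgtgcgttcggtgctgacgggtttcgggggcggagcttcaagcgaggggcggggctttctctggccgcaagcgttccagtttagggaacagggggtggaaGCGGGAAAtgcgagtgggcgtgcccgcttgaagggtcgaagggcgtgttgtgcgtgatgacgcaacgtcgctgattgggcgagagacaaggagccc
Lig4: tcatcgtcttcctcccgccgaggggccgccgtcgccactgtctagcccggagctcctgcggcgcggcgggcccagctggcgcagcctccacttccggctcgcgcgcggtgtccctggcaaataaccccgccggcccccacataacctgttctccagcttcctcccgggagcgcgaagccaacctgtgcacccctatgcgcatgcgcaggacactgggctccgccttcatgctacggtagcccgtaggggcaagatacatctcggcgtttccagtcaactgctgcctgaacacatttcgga
The E2F words searched on both strands were TTTCCCGC, TTTGGCGC and TTTGCCGC. At least 1 of them lay in 4 of the 23 measured members with a promoter entry (17.4%), namely Brca2, Chek2, Mdc1 and Xrcc6, and in 654 of all 32851 promoters of the same length (1.99%). The TCF/LEF words CTTTGAA and CTTTGAT, the recognition sequence of the family to which TCF-1 belongs, lay in 0 of the 23 members and in 8.65% of all promoters. Members were counted as genes with a match in any listed window, and the background as single windows. A gene can have several windows, so the shares of members and of all promoters are unlike measures. A match is a string of letters and not a bound site, and its absence says only that the letters are not in this window.

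Loss of TCF-1 before disease was examined by comparing KO DN3 with WT DN3 cells. Most repair genes had lower values in KO DN3 cells: 22 of the 30 differences were below 0 and 8 above, with a median of -0.10, beside 44.7% below 0 and a median of 0.03 over all 14953 genes tested. Xrcc4, the Lig4 partner, had the lowest difference, -0.62, followed by Trp53bp1 (53BP1, which protects ends from resection) at -0.46. In limma's test none of the 30 passed the adjusted threshold of 0.05 over all genes, whereas 1.99% of all genes did, 0.568% higher and 1.42% lower. At an unadjusted p under 0.05 there were 8, all of them lower, beside 16.3% of all genes in either direction. The count below 0 was 19 of 30 when the arrays were quantile-normalised again and 18 of 30 without KO DN3 replicate 1. The lack of calls does not show equal levels: the median 95% interval reached 0.28 log2 units to each side of the estimate.

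Xrcc4 had 7.04, 7.49 and 7.12 in KO DN3 replicates 1 to 3, against 8.18, 7.69 and 7.64 in WT DN3 replicates 1 to 3. All KO DN3 values lay below all WT DN3 values, a fold of 1.54 between the means, with means of 7.22 ± 0.24 in KO DN3 and 7.84 ± 0.29 in WT DN3 cells (SD, n = 3 each). The difference of -0.62 had a standard error of 0.17, a 95% interval of -1 to -0.25 and a limma adjusted p of 0.0997. Trp53bp1 had 6.07, 6.40 and 6.22 in KO DN3 replicates, against 6.75, 6.75 and 6.57 in WT DN3 replicates, again without overlap. Its difference of -0.46 had a standard error of 0.13, an interval of -0.73 to -0.18 and a limma adjusted p of 0.102.

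Samples with the same replicate number deviated from their group means together across genes in the DN3 groups, and these were treated as pairs in a second model. Blocking on that number, Xrcc4 (limma adjusted p = 0.0221, standard error 0.15) and Trp53bp1 (adjusted p = 0.0227, standard error 0.11) were called lower at the same differences. Those 2 genes are 6.67% of the members, and the blocked fit called 9.23% of all genes in either direction and 6.35% of all genes lower. The members' share was therefore near the background. Within pairs Xrcc4 differed by -1.13, -0.21 and -0.53 for numbers 1, 2 and 3, so that number 1 carried the largest part, and Trp53bp1 by -0.67, -0.35 and -0.34. Of the DN3 arrays the smaller array set holds only pair 1, so its Xrcc4 difference of -1.13 is the same value. Within the larger array set Xrcc4 differed by -0.37.

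Groups did not overlap for 11 members that were lower in KO DN3 cells (36.7%, beside 11.6% of all genes) and for 3 that were higher (10.0%, beside 10.4% of all genes). The break-signalling group held most of the lower ones, with 9 of its 10 measured genes below 0 and a median of -0.26. Atm, the kinase that responds to breaks, had 6.90, 7.34 and 7.05 in KO DN3 cells, against 7.40, 7.47 and 7.47 in WT DN3 cells (difference -0.35, limma adjusted p = 0.221). Atr, the kinase of stalled replication forks, differed by -0.31 (adjusted p = 0.237) and Mdc1, the scaffold that binds marked chromatin, by -0.30 (adjusted p = 0.211). Rnf168, a ubiquitin ligase upstream of 53BP1, differed by -0.23 (adjusted p = 0.442), with a highest KO DN3 value of 8.55 and a lowest WT DN3 value of 8.57. Its pair differences were -0.62, -0.02 and -0.04, and without KO DN3 replicate 1 the difference was -0.09. Rad50, of the complex that senses ends, differed by -0.21 (adjusted p = 0.37). None of these passed the test in either fit. Of the same group, Nbn, the partner of Rad50, overlapped at 6.45 to 6.91 in KO DN3 and 6.91 to 7.05 in WT DN3 cells. Rif1, which acts with 53BP1, also overlapped, at 7.20 to 7.66 in KO DN3 and 7.39 to 7.51 in WT DN3 cells. So did the checkpoint kinases Chek1 (7.52 to 7.77 in KO DN3, 7.40 to 7.65 in WT DN3) and Chek2 (5.39 to 5.82 in KO DN3, 5.48 to 5.83 in WT DN3).

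In core end joining 5 of 8 differences were below 0, with a median of -0.03. Prkdc had 6.79, 7.07 and 6.88 in KO DN3 cells, against 7.30, 7.14 and 7.32 in WT DN3 cells, a difference of -0.34 without overlap (limma adjusted p = 0.202). Xrcc5 had 7.75, 8.10 and 7.57 in KO DN3 cells, against 8.15, 8.23 and 7.98 in WT DN3 cells, and these ranges overlapped (-0.31, adjusted p = 0.326). Lig4 and Xrcc6 lay close together between the groups, with means of 8.44 ± 0.16 in KO DN3 and 8.43 ± 0.06 in WT DN3 for Lig4 and 9.29 ± 0.06 in KO DN3 and 9.33 ± 0.13 in WT DN3 for Xrcc6 (SD, n = 3 each). The gap-filling polymerases had differences above 0. Poll had 5.49, 5.14 and 5.26 in KO DN3 cells, against 4.97, 5.07 and 5.12 in WT DN3 cells (0.24, adjusted p = 0.363), and Polm had 4.99 to 5.34 in KO DN3 and 4.84 to 4.96 in WT DN3 cells (0.25, adjusted p = 0.346). Both are dim, near or below the array median, as was the ligation factor Nhej1 (XLF) at 4.98 to 5.46 in KO DN3 and 4.92 to 5.34 in WT DN3 cells.

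Among recombination genes 6 of 8 differences were below 0, with a median of -0.05. Rad52, which binds single-stranded DNA and anneals it, had 6.70, 6.52 and 6.48 in KO DN3 cells, against 6.99, 6.78 and 6.73 in WT DN3 cells. Its groups did not overlap, and the within-pair differences were close to each other at -0.29, -0.27 and -0.24 (adjusted p = 0.31). Rad54l, the motor protein that works with the strand-exchange filament, was higher within all 3 pairs, by 0.20, 0.56 and 0.08, but its ranges overlapped (0.28, adjusted p = 0.401); without KO DN3 replicate 2 the difference was 0.11. In the last group Lig3, the ligase that Xrcc1 stabilises, had 5.89, 6.17 and 5.96 in KO DN3 cells, against 6.38, 6.24 and 6.50 in WT DN3 cells (-0.37, adjusted p = 0.182). Parp1, the break sensor that builds poly(ADP-ribose), differed by -0.33 (adjusted p = 0.283), with 7.92 to 8.34 in KO DN3 and 8.37 to 8.70 in WT DN3 cells. Lig1, the replicative ligase, was higher without overlap at 7.68 to 7.70 in KO DN3 and 7.54 to 7.58 in WT DN3 cells (0.13, adjusted p = 0.569). The scaffold Xrcc1 had 6.72 to 6.79 in KO DN3 and 6.52 to 6.81 in WT DN3 cells. Across all roles 12 members were lower in all 3 pairs, 4 were higher in all 3 (Poll, Polm, Rad54l and Lig1) and 14 were mixed. The same count was not made over all genes, so these counts do not show whether the members differ from other genes.

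**Figure D2:**
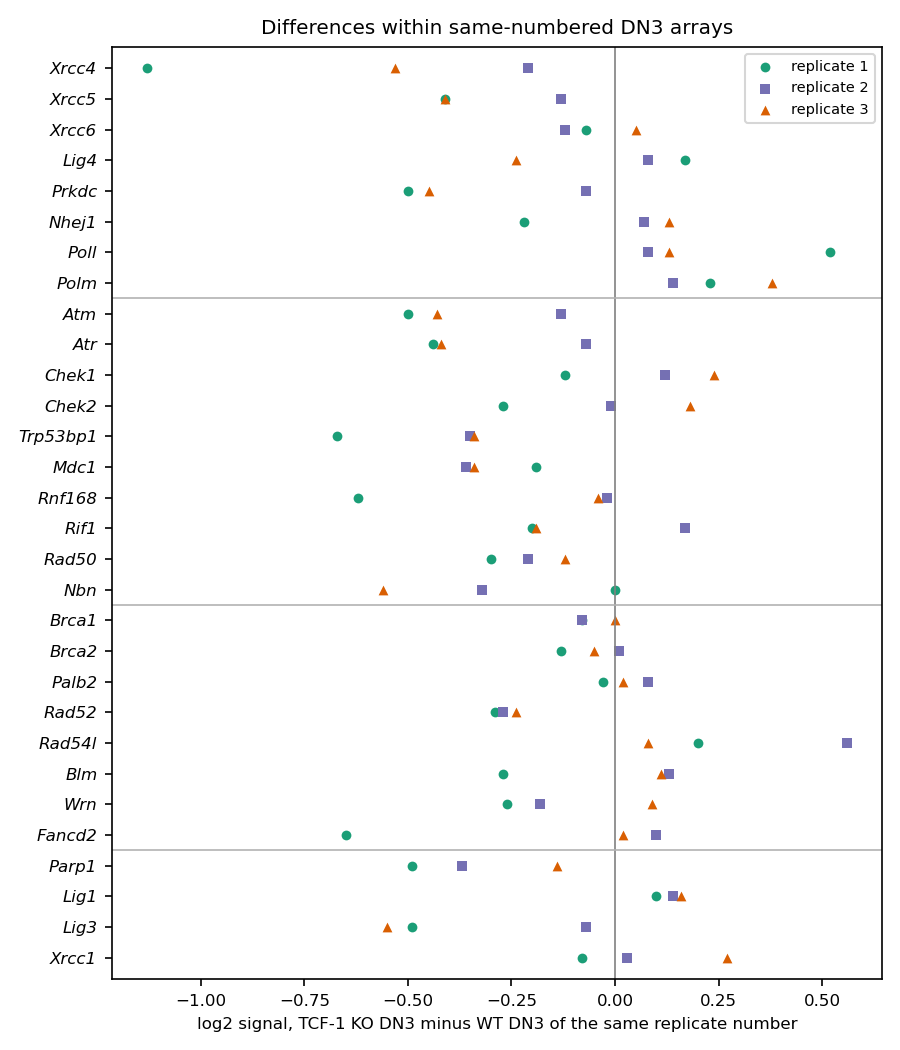
Difference in log2 signal, KO DN3 minus WT DN3 of the same replicate number, for each repair gene (rows, grouped by role; symbols mark replicate numbers). Trp53bp1 and Rad52 lie to the left of 0 in all 3 pairs, and the Xrcc4 difference is -1.13 in pair 1 and -0.21 in pair 2.

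Cell cycle genes, which can move with repair genes, mostly had differences above 0 in KO DN3 against WT DN3 cells. Mean levels of 20 S phase genes were 8.00 to 8.10 in KO DN3 and 7.88 to 7.95 in WT DN3 arrays, and those of 19 G2 and mitosis genes were 7.86 to 8.14 in KO DN3 and 7.60 to 7.86 in WT DN3 arrays. All 19 of the latter list had differences above 0, with a median of 0.20. Of the 20 S phase genes 17 did, with a median of 0.10. None of either list passed limma's test. With the replicate block 4 G2 and mitosis genes and 1 S phase gene were called higher. That fit called 9.23% of all genes in either direction. The part of cell cycle genes in the repair gene values above was not tested.

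Lymphomas were next compared with WT DN3 cells. Xrcc5, the Ku80 gene, rose 1.34-fold in lymphomas and was the only member of the 30 that passed the test. The other 29 did not, among them Xrcc6, whose value lay on the other side of WT DN3. The single call is 1 of 30 members, beside 5.82% of all genes called, 2.96% higher and 2.86% lower, and 1 call of 30 (3.33%) is near that background. Differences fell on both sides of 0, with 14 above and 16 below and a median of -0.03, beside -0.01 over all genes. At an unadjusted p under 0.05 there were 5 members, beside 15.5% of all genes. Groups did not overlap for 3 members higher in lymphomas (Xrcc5, Lig4 and Poll, 10.0% beside 5.28% of all genes) and for 1 lower (Rad50, 3.33% beside 5.04%).

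Xrcc5 had a lowest value of 8.38, a median of 8.52 and a highest of 8.69 in lymphomas, against 8.15, 8.23 and 7.98 in WT DN3 replicates. Every lymphoma lay above every WT DN3 array. The means were 8.54 ± 0.12 (SD, n = 6) in lymphomas and 8.12 ± 0.13 (SD, n = 3) in WT DN3 cells, and the difference of 0.42 had a standard error of 0.10, a 95% interval of 0.21 to 0.63 and a limma adjusted p of 0.0209. It was 0.30 within the smaller array set and 0.48 within the larger. The call was lost without WT DN3 replicate 1 (0.44, adjusted p = 0.0726), without WT DN3 replicate 3 (0.35, adjusted p = 0.128) and in the larger array set alone (adjusted p = 0.0675).

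Xrcc6 had 8.91, 8.97 and 9.32 as its lowest, median and highest values in lymphomas, against 9.30, 9.47 and 9.23 in WT DN3 replicates. The ranges overlapped through lymphoma 6, the one at 9.32. The difference was -0.31, with an interval of -0.54 to -0.08 and a limma adjusted p of 0.133. It passed the test in 1 of 20 settings, without lymphoma 6 (-0.37, adjusted p = 0.0254), and its highest limma adjusted p was 0.445. Lig4 had 8.54, 8.68 and 8.85 in lymphomas, against 8.38, 8.41 and 8.49 in WT DN3 replicates, without overlap (0.25, adjusted p = 0.183). Poll was also higher without overlap, at 5.14 to 5.54 in lymphomas and 4.97 to 5.12 in WT DN3 cells (0.21, adjusted p = 0.347). Xrcc4 spread widely over the lymphomas, from 7.02 through a median of 7.80 to 8.32, and the WT DN3 values of 7.64 to 8.18 lay inside that span. Prkdc had 6.78, 7.08 and 7.31 in lymphomas and 7.14 to 7.32 in WT DN3 cells (-0.19, adjusted p = 0.599).

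In the signalling group the median difference was -0.15. Rad50 had 8.86, 9.03 and 9.19 in lymphomas, against 9.30, 9.32 and 9.20 in WT DN3 cells, without overlap and with a difference of -0.23 (limma adjusted p = 0.192). Mdc1 had 5.61 to 6.11 in lymphomas and 6.05 to 6.10 in WT DN3 cells (-0.19, adjusted p = 0.522), and the Atm and Trp53bp1 ranges in lymphomas covered those of WT DN3 cells. Rnf168 had 8.24 to 8.71 in lymphomas and 8.57 to 8.75 in WT DN3 cells (-0.15, limma adjusted p = 0.6). Only lymphoma 6 reached the WT DN3 range of Rnf168. The recombination group had a median of 0.09. Its helicase Wrn had 7.40 to 7.73 in lymphomas and 7.55 to 7.92 in WT DN3 cells (-0.25, adjusted p = 0.276), and Blm, a helicase that dissolves recombination intermediates, had 7.11 to 7.73 in lymphomas and 7.15 to 7.39 in WT DN3 cells. Palb2, which links the Brca proteins, lay at 4.96 to 5.30 in lymphomas and 4.96 to 5.02 in WT DN3 cells. Medians were 0.03 for core end joining and 0.01 for single-strand break and alternative end joining genes. The median 95% interval reached 0.23 to each side.

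**Figure D3:**
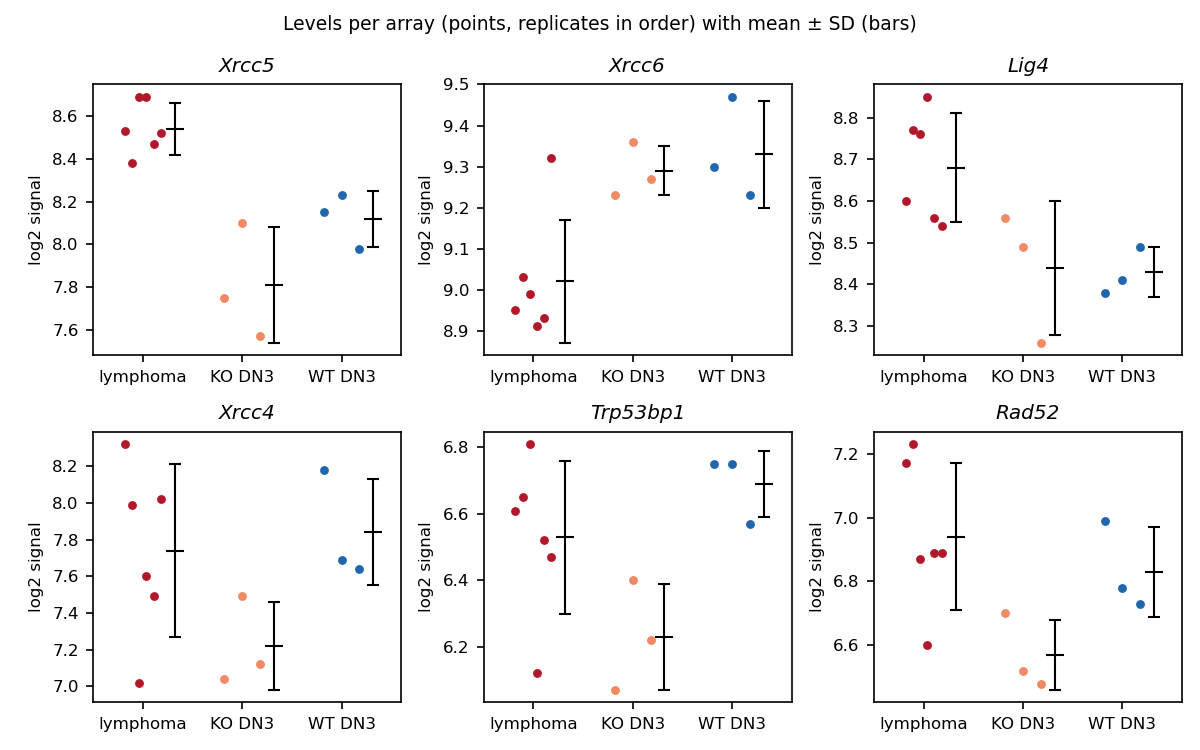
Log2 signal of 6 repair genes on each array (points) with the group mean and SD (bars), lymphomas left, KO DN3 next and WT DN3 right; each vertical axis has its own range and does not start at 0. Xrcc5 sits at 8.38 to 8.69 in lymphomas, above all DN3 arrays, and Xrcc4 at 7.04 to 7.49 in KO DN3 cells, below all WT DN3 arrays.

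Against KO DN3 cells, which share the genotype, lymphomas again had higher Xrcc5. These arrays also served in the other comparisons, so the result is not a separate observation. Xrcc5 had 8.38, 8.52 and 8.69 as its lowest, median and highest values in lymphomas, against 7.75, 8.10 and 7.57 in KO DN3 replicates. The groups did not overlap, and the 1.66-fold rise (difference 0.74, standard error 0.12, 95% interval 0.47 to 1.00) had a limma adjusted p of 0.00423. It was 0.71 within the smaller array set and 0.75 within the larger, and it was called in all 20 settings tried. It was the only member called of 30, beside 6.62% of all genes, 4.50% higher and 2.12% lower. At an unadjusted p under 0.05 there were 8 members, 7 of them higher, beside 24.7% of all genes. Groups did not overlap for 1 member higher (3.33%, beside 7.34% of all genes) and for none lower (beside 6.23%).

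Of the 30 differences 19 were above 0 and 11 below, with a median of 0.10 beside -0.03 for all genes, and role medians lay between 0.06 and 0.10. Rad52 had 6.60, 6.89 and 7.23 in lymphomas, against 6.48 to 6.70 in KO DN3 cells (0.38, limma adjusted p = 0.108). It passed the test in 3 of the 20 settings, among them without lymphoma 4 (0.44, adjusted p = 0.0436), and its highest limma adjusted p was 0.306. Atm had 7.20, 7.42 and 7.65 in lymphomas, against 6.90 to 7.34 in KO DN3 cells (0.33, adjusted p = 0.118). It passed in 1 of the 20 settings, without KO DN3 replicate 2 (0.46, adjusted p = 0.0456), and its highest limma adjusted p was 0.501. Lig3 (0.33, adjusted p = 0.0865), Xrcc4 (0.52, adjusted p = 0.196) and Trp53bp1 (0.30, adjusted p = 0.209) also had differences above 0. Xrcc6 (-0.27, adjusted p = 0.141) and Rad54l (-0.32, adjusted p = 0.205) had differences below 0. Nbn had 6.83, 7.01 and 7.45 in lymphomas, against 6.45 to 6.91 in KO DN3 cells (0.38, adjusted p = 0.131); a second, dimmer Nbn row averaged 5.20 ± 0.11 in lymphomas (SD, n = 6) and 5.45 ± 0.25 in KO DN3 cells (SD, n = 3), the other way round. The median 95% interval reached 0.26 to each side. S phase genes had a median difference of -0.19 in lymphomas from KO DN3 cells, with 0 of 20 above 0, and of -0.09 from WT DN3 cells, with 6 of 20 above 0. G2 and mitosis genes had medians of -0.03 from KO DN3 and 0.23 from WT DN3 cells.

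**Figure D4:**
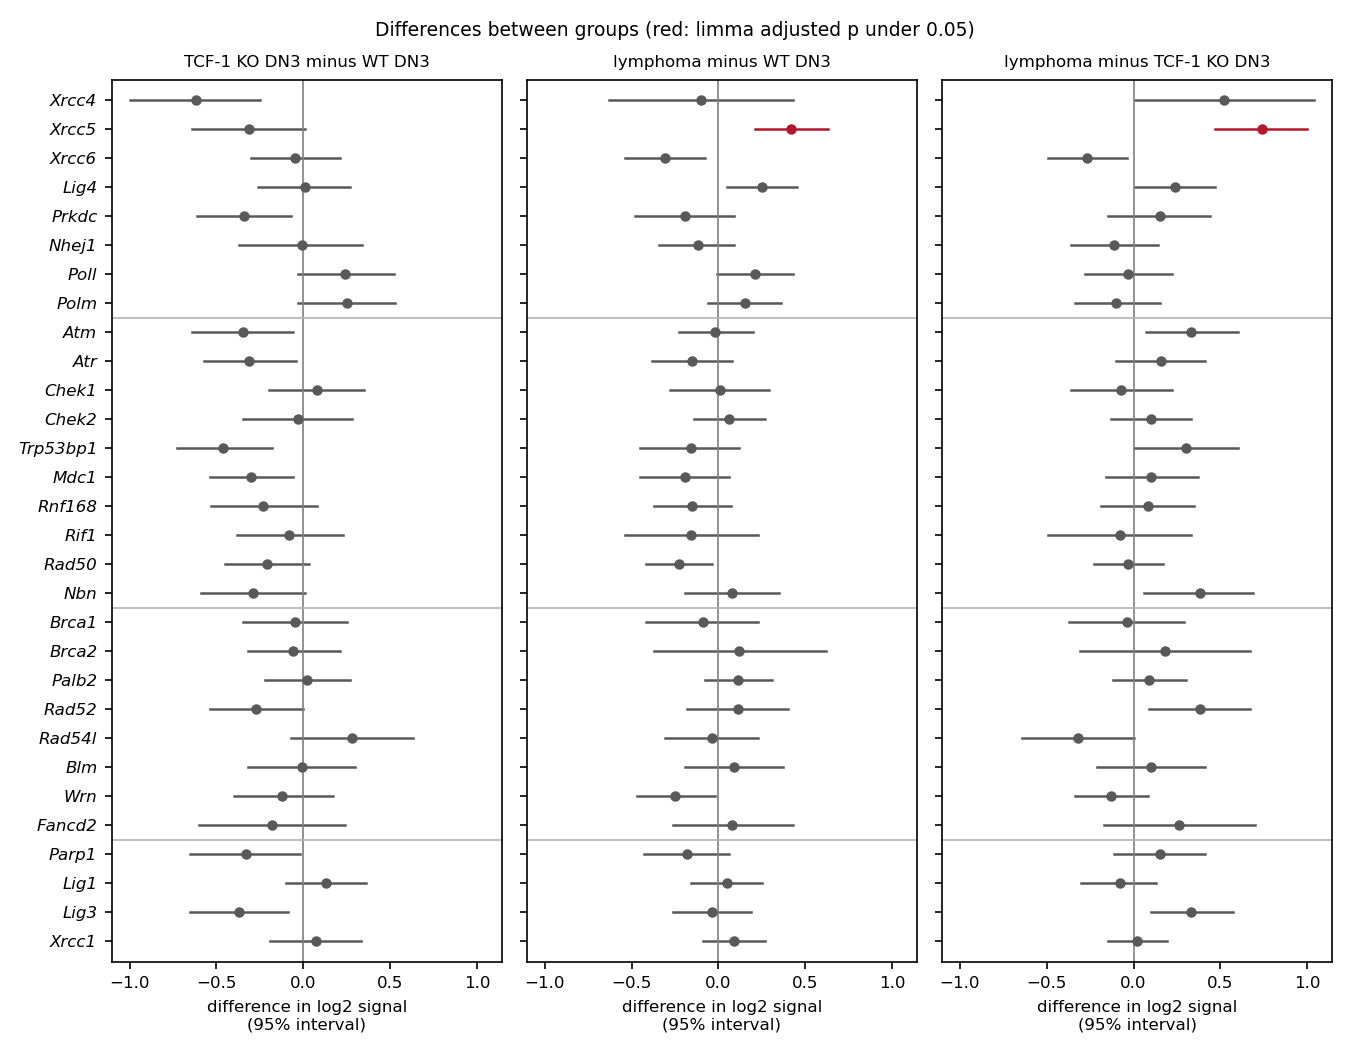
Difference in log2 signal with its 95% interval for each repair gene in the 3 comparisons, from left to right KO DN3 minus WT DN3, lymphoma minus WT DN3 and lymphoma minus KO DN3, with a limma adjusted p under 0.05 in red. Xrcc5 has an interval of 0.47 to 1.00 in lymphomas against KO DN3 cells and of 0.21 to 0.63 against WT DN3 cells.

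Over the 6 lymphomas the repair genes as a set varied about as much as other genes, with a few members at the wide end. The median standard deviation of the members over the lymphomas was 0.157, close to 0.153 for all genes tested, beside 0.169 (all genes 0.162) in KO DN3 and 0.126 (all genes 0.126) in WT DN3 cells. Xrcc4 varied most, with a standard deviation of 0.47 that was above that of 97.8% of genes: lymphoma 3 had 7.02 and lymphoma 1 had 8.32, a range of 1.30. Brca2, the loader of the strand-exchange protein, came next at 0.46, with 5.86 in lymphoma 4, 5.98 in lymphoma 3 and 6.89 in lymphoma 6. Rif1 (0.34, from 6.93 to 7.78), Fancd2, the Fanconi protein activated at blocked forks (0.30, from 5.30 to 6.09), and Brca1, which promotes resection (0.26, from 5.48 to 6.22), followed. Xrcc1 (0.06), Nhej1 (0.08) and Chek2 (0.09) varied least.

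Lymphoma 6 had the highest value of 18 of the 30 members and lay above the lymphoma mean for 24, with a median deviation of 0.22. In the same lymphoma all 20 S phase genes lay above the lymphoma mean (median deviation 0.29), as did 18 of 19 G2 and mitosis genes (0.23). Lymphoma 3 had the lowest value of 8 members (median deviation -0.08), and 0 of its 19 G2 and mitosis genes lay above the mean (-0.37). Lymphoma 4 was also lowest for 8 members (-0.05), while its S phase genes lay near the mean (0.03). Lymphoma 5 was above the lymphoma mean for 5 members, the fewest of the 6, with a median deviation of -0.07, and it was highest for 0. The part of cell cycle genes in these differences was not tested. Lymphomas 1, 2 and 6, the ones with low Xist signal, lay above lymphomas 3, 4 and 5 without overlap for 7 members (Xrcc4, Prkdc, Mdc1, Rif1, Rad50, Brca2 and Wrn), beside 11.1% of all genes, and below them for 1 (Xrcc1), beside 9.76%.

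**Figure D5:**
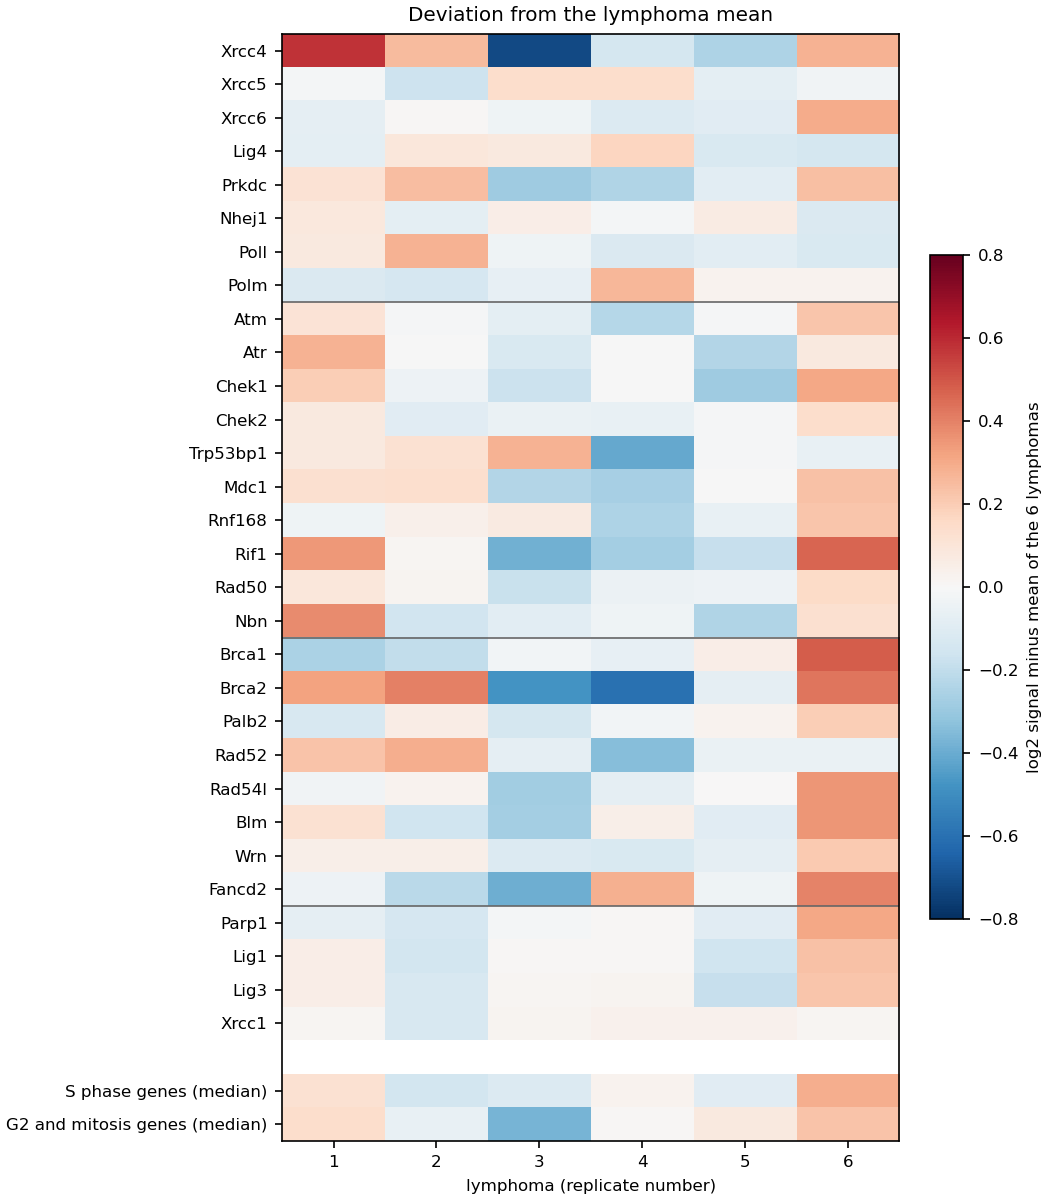
Log2 signal of each repair gene in each lymphoma minus the mean of the 6 lymphomas (colour), with the median deviation of S phase and of G2 and mitosis genes in the bottom rows. Lymphoma 6 is above the mean for 24 of 30 repair genes, and Xrcc4 runs from 8.32 in lymphoma 1 to 7.02 in lymphoma 3.

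A further 85 genes of the same pathways were listed by name, of which 75 were tested: 12 of end joining, 27 of homologous recombination, 12 of the Fanconi pathway and 24 of the damage checkpoint. In KO DN3 against WT DN3 cells 1 fell, none rose and 74 did not pass limma's test, so 1.33% were called beside 1.99% of all genes. The gene that fell was Dntt, the polymerase that adds nucleotides without a template at receptor joins. It had 10.25, 10.30 and 10.18 in KO DN3 replicates, against 10.76, 11.07 and 10.96 in WT DN3 replicates (-0.69, standard error 0.12, adjusted p = 0.0176). Dntt fell in lymphomas too, with 9.54, 10.12 and 10.20 as lowest, median and highest values (-0.94 from WT DN3, standard error 0.15, adjusted p = 0.00214). With the replicate block 3 more genes were called lower in KO DN3 cells: Rad9b (-0.62), a relative of a checkpoint clamp subunit, Rnf169 (-0.53), a ubiquitin-binding protein of the break response, and Tlk2 (-0.66), a kinase of histone chaperones, at adjusted p of 0.00559, 0.00899 and 0.00324. With Dntt these are 4 of 75 (5.33%), beside 6.35% of all genes called lower in the blocked fit, a share near the background. In that comparison 19 of the 24 checkpoint genes had differences below 0, with a median of -0.17.

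Lymphomas had higher Tlk1, the relative of Tlk2, than both DN3 groups. It had 8.44, 8.66 and 8.96 as its lowest, median and highest values in lymphomas, against 7.70, 8.28 and 8.03 in KO DN3 and 8.23, 8.40 and 7.94 in WT DN3 replicates. The difference was 0.68 from KO DN3 (limma adjusted p = 0.0134) and 0.49 from WT DN3 cells (adjusted p = 0.0394), and both comparisons share the lymphoma arrays. Tlk2 (0.61, adjusted p = 0.0259) and Rad9b (0.56, adjusted p = 0.0388) also rose from KO DN3 cells. Rad9b is dim: its KO DN3 mean of 4.75 lies under the 4.784 used to filter genes by their mean over all arrays, so its differences are set against a level near the lower end of the signals. Of the 75 genes, 73 did not pass the test in lymphomas against WT DN3 and 72 in lymphomas against KO DN3 cells, so 2.67% and 4.00% were called in these comparisons, beside 5.82% and 6.62% of all genes. The further end-joining, recombination and Fanconi lists had medians between -0.08 and 0.07 in all 3 comparisons.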

How the data were processed

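RNA of sorted cells was amplified with the NuGEN WT-Ovation Pico system from very small inputs, per the labels' protocols, a step that can widen the spread among arrays. The values are log2 signals of transcript clusters as the authors deposited them; the submitters' processing notes name RMA and Partek without versions. No source states the log base, and base 2 was taken from the range of values (3.00 to 13.3) and RMA's usual output. RMA normalises arrays against each other, so values are relative to the other genes on an array and do not measure RNA content per cell; the medians of the deposited arrays still ran from 5.30 to 5.39. Of 35556 rows, 21789 had 1 gene symbol in the platform annotation, 1621 had several and 12146 none here. The row with the highest mean stood for a gene, and genes with a mean under the 25th percentile (4.784) were left out (4985 of 19938).

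Each comparison was fitted on its own arrays with limma 3.58.1 in R 4.3.3 (lmFit and eBayes, two-sided) over all 14953 genes, with Benjamini-Hochberg adjustment and calls at an adjusted p under 0.05; the code was tested on simulated data. Replicate numbers were checked as pairs: deviations from group means of same-numbered KO DN3 and WT DN3 arrays correlated at 0.51, 0.42 and 0.25, so they were taken as paired in the second model. The correlations were 0.38, -0.26 and 0.11 for lymphomas with KO DN3 and 0.44, -0.22 and 0.15 for lymphomas with WT DN3 cells, so those were not. The labels give replicate numbers but no pairing, which was read from these same values. All measured members were named, and from the further lists each gene called. The members and lists were chosen with earlier results of these data known. Promoters came from RefSeq for the members with the lowest p in the comparison with most calls; 2 comparisons tied, and lymphomas against WT DN3 was taken after the values were seen. Alternatives were other filters and row rules, re-normalised arrays, 1 fit to all arrays, another variance model, the array set and the Xist class as terms, the replicate block, and each array left out.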

Additional observations from a re-analysis of the deposited data

Results flagged for a closer look

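In 3 of the 30 members 1 lymphoma stood apart from the other 5 by more than Dixon's 95% critical value. Chance flags about 1 in 20 groups. Xrcc6 was 9.32 in lymphoma 6, against 8.91 to 9.03 in the others (gap 0.718 of the range). Parp1 was 8.62 in lymphoma 6, against 8.18 to 8.32 (0.695). Xrcc1 was 6.64 in lymphoma 2, against 6.78 to 6.80 (0.856).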

How the results depend on the processing

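No member's difference that passed the test in any setting run had the opposite sign in the reported fit. In KO DN3 against WT DN3 cells the count of members called was 0 and stayed at 0 with any 1 array left out; it was 2 with the replicate block and 2 with the array set as a term (Xrcc4 and Trp53bp1 both times), and the further pathway genes called were 4 with the replicate block and 4 with the array set, beside 1. In lymphomas against WT DN3 cells 1 member was called. The count was 0 with the replicate block (Xrcc5 0.41, limma adjusted p = 0.133), though the numbers do not pair these samples. It was 0 in the larger array set alone and 0 to 2 with 1 array left out. With the Xist class as a term it was 3, where Prkdc (-0.39, limma adjusted p = 0.0369) and Mdc1 (-0.36, adjusted p = 0.0498) were called lower. All WT DN3 arrays had high Xist signal, so the differences in that fit are those of lymphomas 3, 4 and 5 from WT DN3 cells. They do not cover the lymphomas with low Xist signal. In lymphomas against KO DN3 cells it was 2 with the replicate block, 2 with the array set as a term and 1 to 2 with 1 array left out, the second gene being Rad52 in both fits; the further genes called were 5 with the array set, beside 3. The replicate block changed no other member's call. Over all genes the count in KO DN3 against WT DN3 cells was 298, and 1380 with the replicate block, 754 with the array set, 144 in the larger set, 126 with the Xist class and 57 to 443 with 1 array left out. Of the DN3 arrays only KO DN3 replicate 3 had low Xist signal. The Xist class fit of the DN3 groups therefore gave the same values as leaving out that array. The count over all genes was 871 in lymphomas against WT DN3 cells (549 in the larger set, 560 to 872 with 1 array left out). It was 990 in lymphomas against KO DN3 cells (1702 with the array set, 325 in the larger set, 431 to 1361 with 1 array left out). The median spread over the lymphomas ran from 0.131 to 0.174 beside 0.157. Quantile-normalising the arrays again gave 239 calls over all genes in KO DN3 against WT DN3 cells and reduced the uncalled differences of Xrcc5 to -0.17, Rnf168 to -0.10 and Parp1 to -0.19; averaging the rows of Nbn gave -0.02. The cause of these changes was not tested. Dim genes such as Nhej1, Polm and Palb2 had group means below the array medians. Differences of dim genes can be understated, which was not tested here.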
